A study of Arabidopsis thaliana with 18 samples.

Results

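The genes described here fell in Arabidopsis leaves and rose in roots of the same kind of plants under mannitol. They were chosen from the group means of each probe set on Affymetrix ATH1 arrays. A probe set was taken when the mean of the osmotic arrays lay at least 0.6 below the mean of the mock arrays in leaf and at least 0.6 above it in root. All values are on the log2 scale, on which 1 is a 2-fold difference. Of 22746 probe sets, 39 met both thresholds, and leaving out SWEET2 and EXPA8 gave 37 members (0.163%). They make up 2.4% of the 1539 probe sets that fell by the same threshold in leaf and 2.12% of the 1744 that rose by it in root. The opposite pattern, a rise in leaf with a fall in root, was met by 62 probe sets.

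The plants were Arabidopsis thaliana ecotype Columbia-0, unmodified wild type, grown hydroponically on rock wool in MGRL nutrient medium. In both organs the mock plants (day 10 by their label) had no mannitol, the osmotic plants (also day 10) had 0.3 M mannitol added to the medium for 3 h in the light, and the third group is labelled day 11. The day 11 plants are taken here as those returned to basal medium for 1 day after the stress. Each of the 6 groups had 3 biological replicates, 18 arrays in all. The protocol text gives the plants' age at stress as 30 days, so day 10 and day 11 are used here as group names and not as plant ages. There was no mock group at day 11, so the day of sampling and the return to basal medium cannot be told apart.

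Mannitol lowers the water potential of the medium, so that roots in it and leaves supplied by them lose water and growth slows. Plant cells respond by adjusting their walls, their solutes and their stress proteins. Cell wall enzymes such as xyloglucan endotransglucosylases cut and rejoin the xyloglucan chains between cellulose fibrils, and pectate lyases cut pectin. SWEET proteins carry sugars across membranes, and flavonol glycosyltransferases attach sugars to flavonols. In whole organs, fewer cells of a type and less RNA per cell cannot be told apart, which applies to every difference given below.

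The deposited values ran from 2.38 to 13.9, with array medians between 6.553 and 6.690. Pairs of arrays within a group correlated at 0.9867 to 0.9947 over all probe sets. The 4 measured leaf markers (RCA, PSAE-1, PRK and SBPASE) had group means of 11.3 to 13.5 in leaf and 3.64 to 6.40 in root. The 3 measured root markers (EXPA7, AT1G26250 and AT3G01190) had group means of 9.40 to 12.5 in root and 3.45 to 4.91 in leaf. Tissue labels and markers therefore matched in every group. The summed level of the leaf markers was 19.3 in mock root and 18.7 in osmotic root, and that of the root markers was 12.0 in both mock and osmotic leaf. Among leaf markers in root, PSAE-1 moved the other way from the sum, from 4.61 to 5.65. The part of either marker set in the members' values was not tested.

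Of the 37 members, 18 are paired with 1 gene by the platform annotation, 1 with several genes and 18 with none. The last 19 are given by probe set. Their median difference between osmotic and mock was -0.88 in leaf and 0.87 in root. In leaf 14 members fell at least 2-fold, in root 15 rose at least 2-fold, and 5 did both. All 3 osmotic arrays lay below all 3 mock arrays in leaf for 33 members (18.9% of all probe sets did) and above them in root for 35 (18% of all). Both held for 32 members (1.7% of all probe sets). These values chose the members and are a description only.

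**Figure D1:**
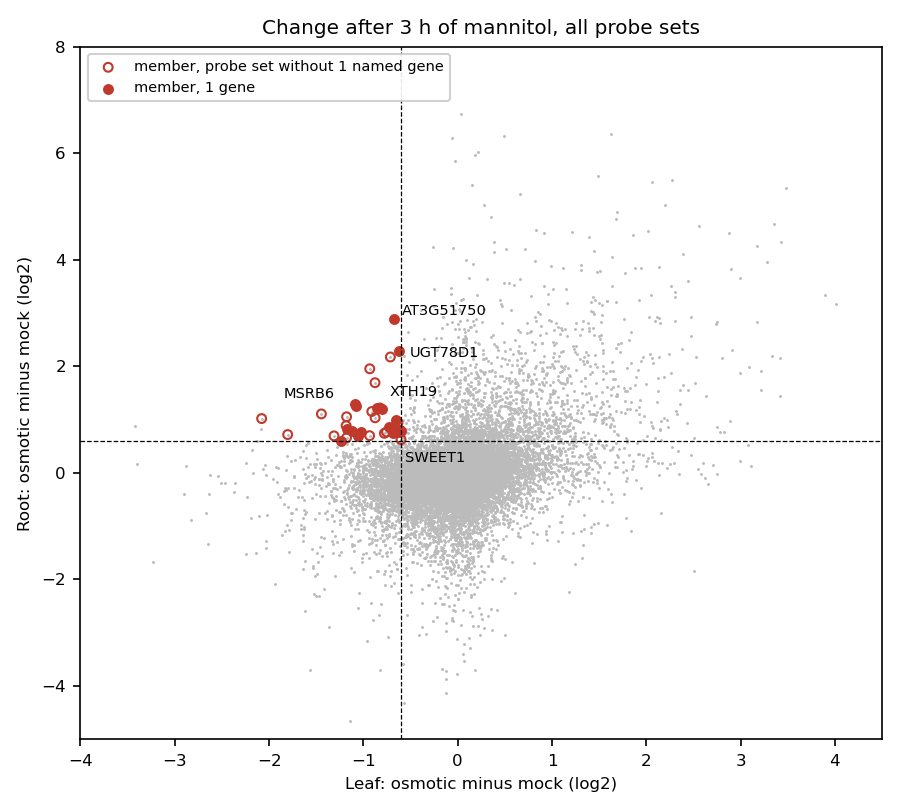
Osmotic minus mock group means (log2) of every probe set, leaf on the horizontal axis and root on the vertical axis, with the 37 members marked. The members fill the corner set by both thresholds of 0.6, with medians of -0.88 in leaf and 0.87 in root.

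The thresholds run through a continuous range of values. Just inside the leaf threshold lay 249727_at (-0.60), AT3G58830 (-0.61) and AT1G58150 (-0.61). Just outside it lay 258677_at (-0.59), GPDHC1 (-0.59, with 0.66 in root) and AT1G47530 (-0.58, with 0.99 in root). Just inside the root threshold lay AT1G11850 (0.60), 249727_at (0.63) and 264021_at (0.66), and just outside it 253247_at (0.60, below the threshold before rounding), 261226_at (0.59) and 253285_at (0.59). When each of the 12 day 10 arrays was left out in turn, 12 members met the rule every time, and 249727_at met it least often, in 6 of 12. The second osmotic leaf array was the lowest of its 3 for 22 of the 37 members, with a median of -0.23 from the group mean. Without that array 37 probe sets met the rule, 30 of them members.

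Some root rises start from the bottom of the array's range. The mock root mean lay below 4.496, the highest lower quartile of any array, for 8 members, among them AT5G57785, AT4G12830, AT3G51750, UGT78D1 and AT1G11850. In 254250_at, also among the 8, the osmotic root mean (3.75) lay below 4.496 too. The sizes of the rises of these 8 members are therefore uncertain. The same holds for the leaf fall of 3 members, 251428_at, AT2G18360 and 258957_at, whose osmotic leaf means lay below that level.

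The cell wall enzyme XTH19 was a root gene at day 10. Its leaf arrays read 5.15, 5.75 and 5.50 in mock, 4.95, 4.15 and 4.89 in osmotic and 5.88, 6.86 and 6.58 at day 11. In root they read 9.35, 9.22 and 9.53 in mock, 10.53, 10.25 and 10.94 in osmotic and 9.41, 9.15 and 9.0 at day 11. All 3 osmotic arrays were the lowest in leaf and the highest in root, without overlap with mock, and every day 11 leaf array was above every mock leaf array. The day 11 level was also set against the midpoint of mock and osmotic, a contrast whose error does not depend on the difference that chose the members. Day 11 lay above that midpoint in leaf by 1.38 ± 0.21 (SE, n = 3 arrays a group; limma, adjusted p = 0.0011) and below it in root (-0.78 ± 0.21, adjusted p = 0.025). The root call was lost in 4 of the 18 fits that left out 1 array (the third mock, the third osmotic, and the second or the third day 11 root array), with adjusted p from 0.053 to 0.11. The root minus leaf difference of these contrasts was -2.16 ± 0.30 (limma, adjusted p = 0.00051).

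AT5G48900, a pectate lyase, read 8.84, 9.25 and 8.95 in mock leaf, 8.20, 7.46 and 8.29 in osmotic leaf and 8.62, 8.96 and 9.16 at day 11. The root arrays read 8.66, 8.60 and 8.70 in mock, 9.52, 9.31 and 9.41 in osmotic and 8.50, 8.38 and 8.50 at day 11. Its day 11 root arrays all lay below the lowest osmotic array and below every mock array. The day 11 root level was -0.57 ± 0.15 from the midpoint (limma, adjusted p = 0.023), and the root minus leaf difference was -0.99 ± 0.22 (limma, adjusted p = 0.013). Without any of the 3 day 11 root arrays the root value no longer passed the threshold.

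Among 28 measured genes found by name text as expansins or xyloglucan endotransglucosylases, XTH19 was the member. The 27 others, including the EXPA8 left out, gave 2 higher and 6 lower in osmotic leaf, and 3 higher and 7 lower in osmotic root (limma, adjusted p under 0.05). Over all probe sets, 8.62% were called higher and 12% lower in leaf, and 10.6% higher and 13.7% lower in root. In 9 of the 27 the leaf value was below 0 and the root value above 0, against 18.8% of all measured genes. The 9 include EXPA8, which met both thresholds of the rule. They also include root values close to 0, such as 0.007 for EXGT-A3 and 0.016 for EXPA24. Whether the share differs from that of all genes was not tested. XTH33 was missed by the name text and is not among the 28. It had a difference of -0.22 in leaf and of -1.16 in root (limma, adjusted p = 0.010 in root). EXPB3 fell in both organs, from 8.85 to 7.96 in leaf (adjusted p = 0.042) and from 10.12 to 7.36 in root (adjusted p = 1.5e-06). EXLB1 rose in both, by 0.77 in leaf (adjusted p = 0.0082) and by 1.75 in root. XTH20 rose in root (adjusted p = 0.00018) and went from 8.09 in mock to 9.39 in osmotic and 9.91 at day 11, while in leaf its group means stayed between 3.11 and 3.49. XTH18, which lies next to XTH19 in the TAIR10.1 gene order, had a leaf difference of -0.24 and a root difference of -0.01 and did not pass the test in either organ. Like XTH19, XTH18 had a day 11 leaf mean above mock, with 4.93 in mock, 4.69 in osmotic and 6.48 at day 11.

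SWEET1, a sugar transporter, read 9.12, 9.12 and 8.87 in mock leaf, 8.52, 8.60 and 7.92 in osmotic leaf and 8.66, 8.82 and 8.42 at day 11. In root it read 5.34, 4.76 and 5.0 in mock, 5.39, 5.96 and 6.0 in osmotic and 5.78, 5.60 and 6.02 at day 11. The mock and osmotic arrays did not overlap in either organ, and the day 11 root arrays overlapped the osmotic arrays. Of 16 SWEET genes measured, 4 had a leaf value below 0 with a root value above 0, against 18.8% of all measured genes. Among these 4, 2 met both thresholds of the rule, SWEET1 and the SWEET2 left out. Another, SWEET8, had a leaf difference of -0.003 near the bottom of the range. The group means of 6 of the 16 stayed below the lower quartile throughout. The family was counted after the members were known, and SWEET1 and SWEET2 count by the same values that met the rule. The count of 4 is therefore a description only.

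AT2G16660, a member of the major facilitator superfamily of transporters, read 10.80, 10.75 and 11.13 in mock leaf, 9.58, 9.75 and 9.98 in osmotic leaf and 10.90, 10.92 and 11.46 at day 11. Its root arrays read 9.24, 9.11 and 8.51 in mock, 9.70, 9.85 and 9.69 in osmotic and 9.27, 9.28 and 9.19 at day 11. The leaf groups at day 11 and in mock overlapped, and both lay above every osmotic array. Day 11 leaf exceeded the midpoint by 0.76 ± 0.15 (limma, adjusted p = 0.0056), a call lost without the third day 11 leaf array (adjusted p = 0.056).

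UGT78D1 attaches rhamnose to flavonols. Its leaf arrays read 8.70, 8.87 and 8.40 in mock, 7.93, 8.22 and 7.97 in osmotic and 8.77, 8.47 and 7.79 at day 11. Its root arrays read 3.80, 4.02 and 4.02 in mock, 6.46, 6.24 and 6.03 in osmotic and 4.09, 4.31 and 4.15 at day 11. The osmotic root arrays stood apart above all other root arrays, while day 11 leaf overlapped both other leaf groups. Day 11 root was -0.91 ± 0.17 from the midpoint (limma, adjusted p = 0.0024). Mock and day 11 root both lay below 4.496, so the size of that value is uncertain. Of its closest relatives, UGT78D2, a flavonoid glucosyltransferase, rose in root by 0.56 (adjusted p = 0.0091) with a leaf difference of 0.05. UGT78D3 was near the bottom of the range in every group, with differences of -0.08 in leaf and 0.06 in root. Among the other 45 genes found by UDP-glycosyltransferase name text, a list that also caught XTH33, 8 were higher and 3 lower in osmotic leaf, and 9 higher and 7 lower in osmotic root. Over all probe sets the shares were 8.62% and 12% in leaf and 10.6% and 13.7% in root.

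MSRB6, a methionine sulfoxide reductase that repairs oxidised methionine in proteins, had the largest smaller change of the 18 members with 1 gene. It read 10.73, 10.93 and 10.78 in mock leaf, 9.74, 9.16 and 10.27 in osmotic leaf and 10.57, 9.81 and 10.19 at day 11. Its root arrays read 5.68, 5.48 and 5.26 in mock, 6.65, 7.27 and 6.36 in osmotic and 5.46, 5.87 and 5.84 at day 11. Osmotic and mock arrays did not overlap in either organ. MSRB5, its neighbour in TAIR10.1, had values of the opposite sign, 0.41 ± 0.19 (SE) in leaf and -0.30 ± 0.19 in root. Of the other measured genes of the family, MSRB9 had 0.995 in leaf and 0.29 in root. MSRB3 had 0.44 and 0.03, and MSRA5 had -0.16 and -0.47. These values are a description only.

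AT5G28500 encodes a Rubisco accumulation factor, which assists assembly of the carbon-fixing enzyme. Its leaf arrays read 10.49, 11.07 and 10.68 in mock, 10.29, 9.84 and 10.23 in osmotic and 10.92, 10.85 and 10.82 at day 11. In root it read 4.55, 4.93 and 4.88 in mock, 5.37, 5.78 and 5.53 in osmotic and 5.43, 5.69 and 5.46 at day 11. The root level at day 11 was in the osmotic range. Among the members with 1 gene it had the widest organ gap, with a root minus leaf difference of -5.26 ± 0.11 at day 10 (limma, adjusted p = 3.0e-18).

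AT3G58830, a phosphatidylglycerophosphate phosphatase of membrane lipid synthesis, had group means of 8.82 in mock leaf, 8.21 in osmotic leaf, 7.31 in mock root and 8.09 in osmotic root. AT2G44940, an AP2/ERF transcription factor of the DREB group, read 8.36, 7.89 and 7.50 in mock leaf and 7.44, 6.47 and 6.60 in osmotic leaf. In root it read 7.94, 7.82 and 7.66 in mock, 9.32, 9.12 and 8.77 in osmotic and 8.32, 8.92 and 8.60 at day 11. No leaf or root array of the osmotic group overlapped with mock, while day 11 did not pass the test in either organ.

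The alpha/beta hydrolase AT2G18360 lay further from mock in root at day 11 than under mannitol. Its root arrays read 7.81, 7.60 and 8.18 in mock, 8.64, 9.13 and 8.42 in osmotic and 9.66, 10.39 and 10.14 at day 11, so the 3 groups did not overlap. Its leaf arrays read 4.92, 4.74 and 5.29 in mock, 4.25, 4.26 and 4.25 in osmotic and 4.00, 5.07 and 4.78 at day 11. Day 11 root exceeded the midpoint by 1.77 ± 0.22 (limma, adjusted p = 5.3e-05). AT1G04800, a glycine-rich protein, read 5.28, 5.30 and 4.58 in mock root, 6.01, 6.13 and 6.0 in osmotic root and 6.15, 5.90 and 6.05 at day 11. Its day 11 root value was 0.48 ± 0.15 above the midpoint (limma, adjusted p = 0.042), a call lost in 11 of 25 alternatives. The other alpha/beta hydrolase, AT4G12830, had group means of 8.28 in mock leaf, 7.22 in osmotic leaf, 4.03 in mock root and 4.73 in osmotic root.

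No role is given here for 6 members with 1 gene. AT3G51750 read 3.51, 3.41 and 3.99 in mock root, 6.86, 6.25 and 6.48 in osmotic root and 4.26, 3.67 and 3.50 at day 11. The day 11 arrays lay with mock at the bottom of the range, below every osmotic array. The day 11 root value was -1.27 ± 0.24 from the midpoint (limma, adjusted p = 0.0023), and its size is uncertain at that level. AT5G49100 read 6.84, 7.64 and 6.87 in mock leaf, 6.17, 6.08 and 6.52 in osmotic leaf and 7.66, 7.26 and 7.24 at day 11. The other 4, AT1G11850, AT1G58150, AT5G04790 and AT5G57785, did not pass the day 11 test in either organ.

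**Figure D2:**
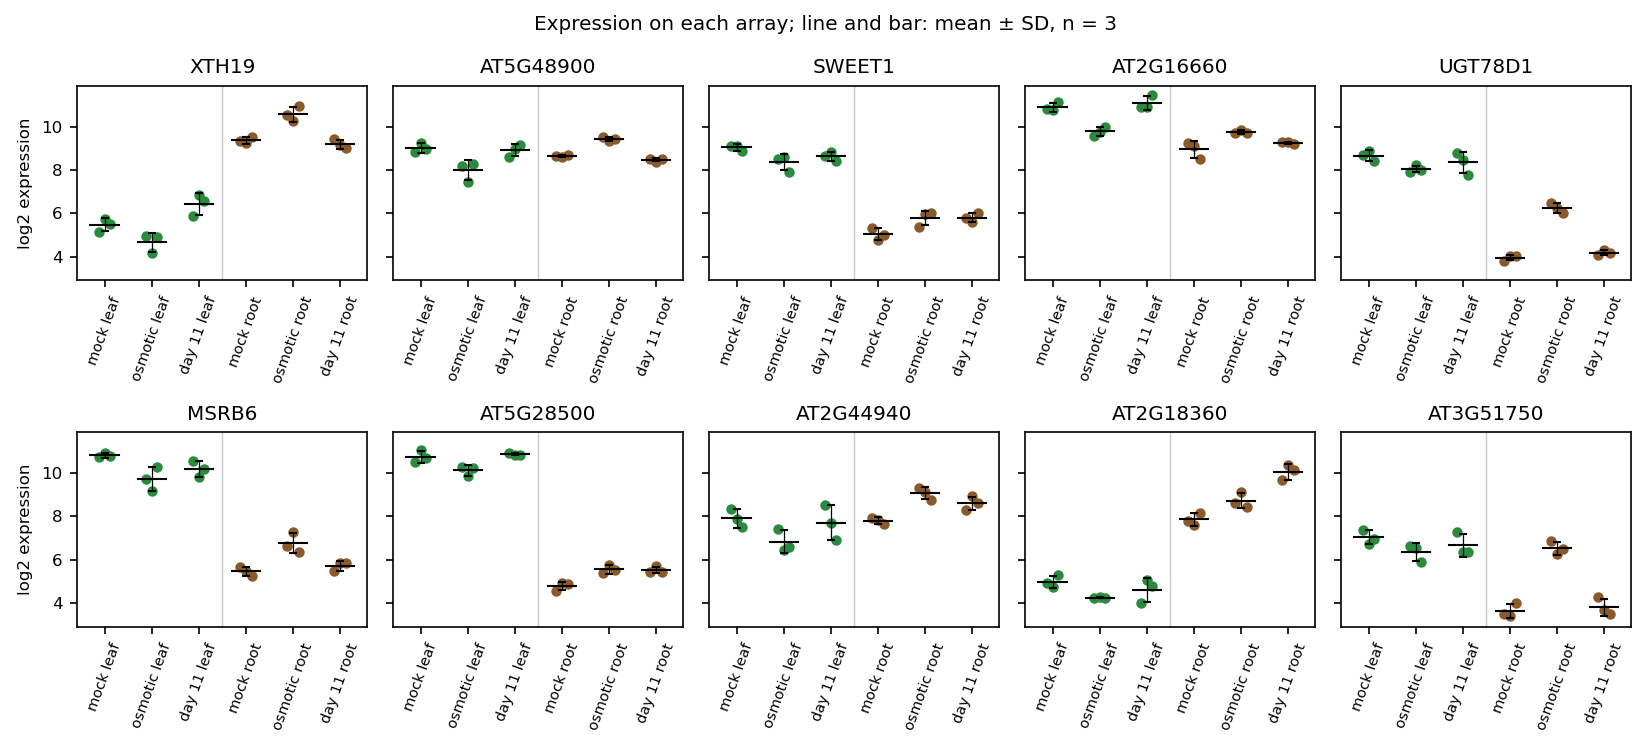
Log2 level of selected members on each array, by organ and group, with points for arrays and lines with bars for the group mean ± SD (n = 3). In XTH19 the osmotic arrays are the lowest in leaf and the highest in root, and in AT2G18360 the day 11 root arrays are the highest.

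Over all 37 members the day 11 group mean lay between osmotic and mock for 22 in leaf, above mock for 14 and below osmotic for 1. In root it lay between for 27, above osmotic for 4 and below mock for 6. These positions are set against the mock and osmotic means that chose the members. They are a description only, and no share over all probe sets was computed for them. The midpoint test called 8 members higher in leaf (21.6%, against 2.88% of all probe sets and 19.5% of the other leaf fallers) and 0 lower (2.92% of all). In root it called 8 lower (21.6%, against 5.14% of all and 32.5% of the other root risers) and 3 higher (8.11%, against 5.14% of all and 4.92% of the other root risers). Called in leaf were XTH19, AT2G16660, AT5G49100, 246932_at, 256299_at, 253925_at, 259685_at and 259391_s_at. Called lower in root were XTH19, AT5G48900, AT3G51750, UGT78D1, 250690_at, 259685_at, 262263_at and 266921_at, and called higher in root were AT2G18360, AT1G04800 and 252711_at. XTH19 and 259685_at were called in both organs, and 20 members in neither. Several of these calls were fragile over the 25 alternatives. In leaf, AT5G49100 lost its call in 10, 259391_s_at in 7, 253925_at and 259685_at in 5 each, 256299_at in 2 and AT2G16660 in 1. In root, 262263_at lost it in 12, AT1G04800 in 11, XTH19 in 4, AT5G48900 and 252711_at in 3 each, 250690_at in 2 and 259685_at in 1.

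The leaf and root contrasts differed by the test of their difference in 11 members. In 10 it was lower in root (27%, against 2.28% of all probe sets, 4.19% of the other leaf fallers and 14.5% of the other root risers). In 1, AT2G18360, it was higher in root (1.77 ± 0.31, limma, adjusted p = 0.0028; 2.49% of all probe sets). By the rule the members fell in leaf and rose in root, so a return towards mock in both organs gives a value below 0 here. The other leaf fallers had a median osmotic minus mock difference of -0.24 in root, and the other root risers 0.43 in leaf. The sign and the share of the 10 therefore follow in part from the rule. Whether the members' shares differ from those of the other leaf fallers or root risers was not tested. Over the 25 alternatives the call of this difference was lost in 13 for UGT78D1 and in 11 for AT3G51750. It was lost in 4 each for AT2G16660 and 253925_at and in 3 for 262263_at.

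**Figure D3:**
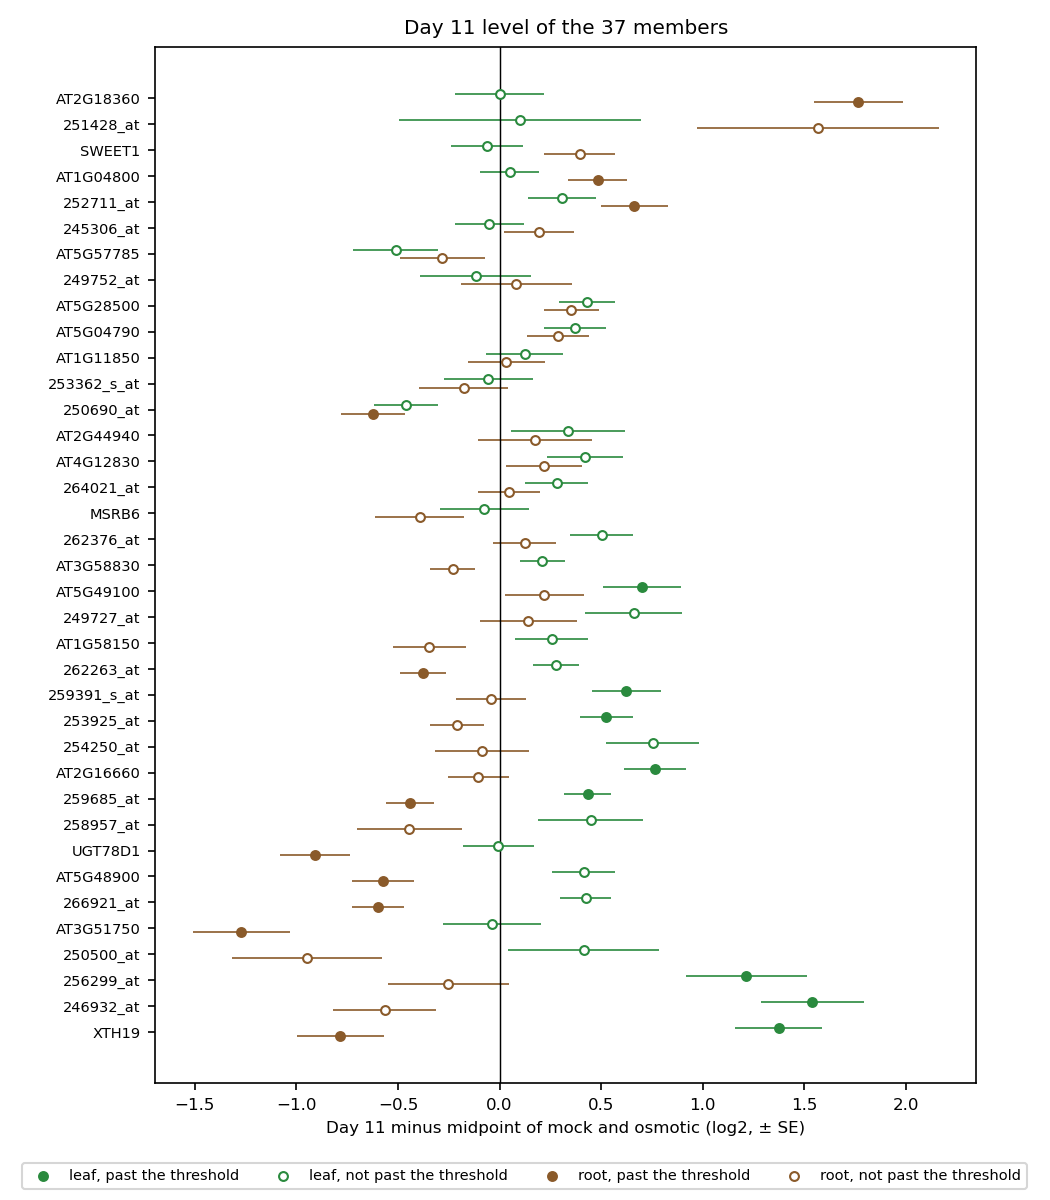
Day 11 minus the midpoint of mock and osmotic (log2, ± SE) for the 37 members, leaf in green and root in brown, filled where adjusted p is under 0.05. Leaf has 8 filled points, all to the right of 0, and root has 8 to the left and 3 to the right.

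The members were mostly leaf genes. Across mock and osmotic arrays at day 10, 24 were higher in leaf (64.9%, against 26.5% of all probe sets and 51.5% of the other leaf fallers) and 9 higher in root (24.3%, against 38.2% of all and 36.2% of the other leaf fallers). On the day 11 arrays, which the rule did not use, 27 were higher in leaf (73%, against 24.6% of all and 51.2% of the other leaf fallers) and 6 higher in root (16.2%, against 33.8% of all and 30.4% of the other leaf fallers). Of the other root risers, 30.8% were higher in leaf and 49.4% higher in root at day 10. At day 11 these shares were 33.3% and 38.4%. Whether the members differ from the other leaf fallers or the other root risers in this was not tested. The root minus leaf difference of MSRB6 was -4.47 ± 0.25 at day 11 (limma, adjusted p = 1.3e-11). At the other end XTH19 was higher in root by 2.75 ± 0.25 (limma, adjusted p = 1.2e-08) and AT2G18360 by 5.44 ± 0.25 (limma, adjusted p = 7.0e-13).

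The median root minus leaf level of the members was -2.50 in mock, -0.39 in osmotic and -1.68 at day 11. The narrowing under mannitol follows from the rule. In mock 31 members had the higher mean in leaf, in osmotic 21 and at day 11 29, against 45.6%, 45.8% and 48.4% of all probe sets. In 10 members the higher organ changed from leaf in mock to root in osmotic, among them AT2G44940, AT5G48900, AT5G49100, AT3G51750, AT5G04790 and AT1G58150. At day 11, 2 of the 10 were still higher in root. The 10 were picked out by the same mock and osmotic means that chose the members. Both counts are therefore a description only, and no share over all probe sets was computed.

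**Figure D4:**
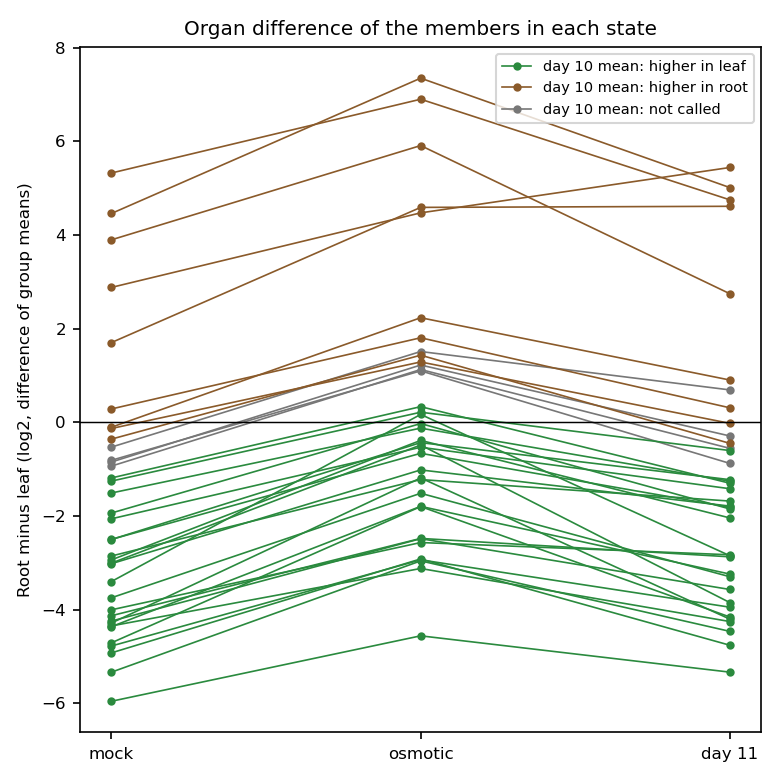
Root minus leaf group means (log2) of each member in mock, osmotic and day 11 plants. The median moves from -2.50 in mock to -0.39 in osmotic and -1.68 at day 11.

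The members without a gene name held several of the largest values, and were singled out after their values were seen. 246932_at read 7.75, 7.91 and 8.66 in mock leaf, 6.39, 5.75 and 6.78 in osmotic leaf and 8.36, 8.73 and 9.14 at day 11, and its day 11 leaf level exceeded the midpoint by 1.54 ± 0.25 (limma, adjusted p = 0.0015). 256299_at read 11.39, 11.17 and 10.91 in mock leaf, 9.61, 8.59 and 9.04 in osmotic leaf and 12.11, 10.85 and 11.04 at day 11, with 1.22 ± 0.30 above the midpoint (limma, adjusted p = 0.021). Without the first day 11 leaf array the value of 256299_at did not pass (adjusted p = 0.13). 251428_at varied widely within groups, at 5.72, 7.38 and 7.58 in mock root and 7.37, 10.54 and 8.63 in osmotic root, which overlap. 262376_at had the largest smaller change of all members, at 8.78, 9.20 and 8.99 in mock leaf against 7.85, 7.23 and 7.56 in osmotic leaf, and 5.83, 6.06 and 6.27 in mock root against 7.19, 7.07 and 7.22 in osmotic root.

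**Figure D5:**
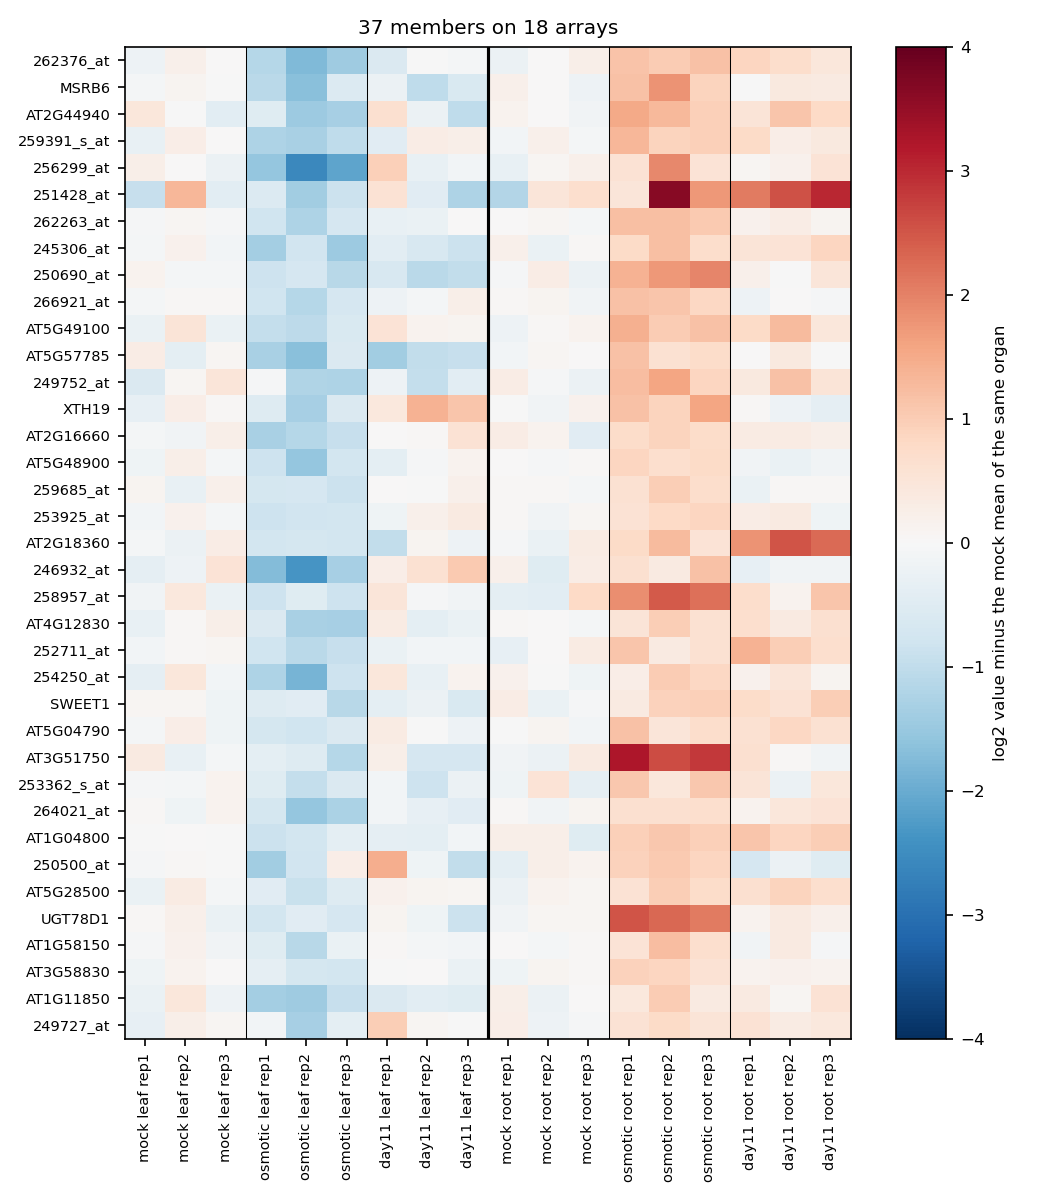
Level of each member on each of the 18 arrays minus its mock mean in the same organ (log2), with the colour scale ending at 4 in each direction. The osmotic columns lie below mock in leaf and above it in root, and all 3 did so without overlap for 32 members.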

How the data were processed

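Total RNA of leaves and roots was hybridised to ATH1 arrays, per the labels' protocols. The authors deposited log2 values, 1 column an array, used as given. Their summarisation and normalisation are not given in the sources used here, and the log base was read from the range. The 64 control probe sets were left out. Platform annotation paired 13513 of 22746 probe sets with 1 gene, of which 13436 matched the RefSeq table (TAIR10.1), used for names and gene order only. Using limma 3.58.1 under R 4.3.3, 1 linear model held every group's mean over the 18 arrays (eBayes with trend). Benjamini-Hochberg adjustment ran over all probe sets, with a threshold of 0.05. The script was also tested on simulated data with known changes. With 3 against 3 arrays the smallest exact permutation p is 0.1. The number of arrays limits the precision.

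Members and gene lists were chosen with earlier results of these data known. The contrasts that chose the members are not tested for them. Named genes were members with 1 gene, taken by size of change, by day 11 or organ calls, by nearness to a threshold or by list, plus the largest non-members of a list. Alternatives were quantile or median scaling, no trend, array weights, a filter on dim probe sets, only the groups of a contrast, a replicate block, other thresholds and each array left out.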

Additional observations from a re-analysis of the deposited data

Results flagged for a closer look

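In 11 members the day 11 level, relative to the midpoint of mock and osmotic, differed between root and leaf by the test of that difference (limma, Benjamini-Hochberg over all probe sets, n = 3 arrays a group). Upward in leaf and downward in root is towards mock. The members fell in leaf and rose in root by the rule, so a return to mock in both organs gives a value below 0. Such a value need not mean that the organs differ in their return. In 259685_at, day 11 minus mock was 0.06 in leaf and -0.06 in root. The root minus leaf value was -2.16 ± 0.30 for XTH19 (adjusted p = 0.00051), -2.11 ± 0.36 for 246932_at (adjusted p = 0.0022) and -1.02 ± 0.18 for 266921_at (adjusted p = 0.0028). It was 1.77 ± 0.31 for AT2G18360 (adjusted p = 0.0028), the only one of the 11 above 0. It was -0.88 ± 0.16 for 259685_at (adjusted p = 0.0046) and -0.99 ± 0.22 for AT5G48900 (adjusted p = 0.013). These 6 passed under all 25 alternatives. The other 5 were lost under at least 1 alternative. They were -0.65 ± 0.16 for 262263_at (adjusted p = 0.023), -0.87 ± 0.21 for AT2G16660 (adjusted p = 0.024), -0.74 ± 0.19 for 253925_at (adjusted p = 0.028), -0.90 ± 0.25 for UGT78D1 (adjusted p = 0.040) and -1.23 ± 0.34 for AT3G51750 (adjusted p = 0.045). Of the 25 alternatives, UGT78D1 lost its call in 13, AT3G51750 in 11, AT2G16660 and 253925_at in 4 each and 262263_at in 3. In UGT78D1 and AT3G51750 mock and day 11 root lay below 4.496, near the bottom of the range, so the size of their values is uncertain. Groups of 3 arrays are too small for the test of single outlying arrays.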

How the results depend on the processing

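Of 96 calls among the members over 5 contrasts, each repeated under 25 alternatives (2400 repeats), 109 repeats lost the call, 76 calls were never lost, 20 were lost at least once and 0 reversed. Members called higher in leaf at day 11 numbered 8, but 13 with array weights, 3 with only the groups of the contrast and 3 to 11 when 1 array was left out (3 without the third day 11 leaf array). Members called higher in root numbered 3, but 5 with array weights, 1 with only the groups of the contrast and 1 to 3 when 1 array was left out (1 without the first or the second day 11 root array). Members called lower in root numbered 8, and 4 to 9 when 1 array was left out (4 without the first or the second day 11 root array). The root minus leaf difference was lower for 10, and for 5 to 10 when 1 array was left out (5 without the third day 11 root array). The day 10 and day 11 organ gaps gave counts within 1.5 times the reported ones under every alternative. The cause of these shifts was not tested. The number of members was 37, 90 at a threshold of 0.5, 5 at a threshold of 1, and 36 to 51 when 1 day 10 array was left out. Quantile normalisation gave 38 members (32 shared), centring on medians 44 (30 shared) and group medians 42 (25 shared).

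Replicate numbers showed little pairing over all groups together. Of 45 same-numbered pairs, 10 correlated over 0.1 in their deviations from group means (r from -0.29 to 0.35). The median r was 0.02 for same numbers and -0.01 for other numbers. Leaf and root of the same treatment were not examined apart, so a pairing between them was not tested. With the replicate number as a block, 8 members were higher in leaf, 7 lower and 2 higher in root, and 10 lower in root minus leaf.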

Other observations

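The 17 members found in TAIR10.1 lie on all 5 nuclear chromosomes (5, 3, 2, 3 and 4 members on chromosomes 1 to 5). Of their 34 nearest neighbours, 14 were measured, and none of these met the rule, which 0.163% of all probe sets met as members. A leaf value below 0 with a root value above 0 was found in 5 of the 14, against 18.8% of all measured genes. The median osmotic minus mock differences of the 14 were -0.04 in leaf and 0.08 in root. BGLU24, a beta-glucosidase next to AT5G28500, had the widest difference among them, 6.29 in root and -0.06 in leaf. These neighbours were looked at after the members were known.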
